A study of Mus musculus with 12 samples.

Results

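MAPK phosphatases and receptor kinase feedback inhibitors switch off growth factor and stress signalling, and 10 of their genes were followed here in mouse liver. The genes were chosen by symbol and comprise 7 dual-specificity phosphatases (*Dusp1*, *Dusp3*, *Dusp4*, *Dusp6*, *Dusp8*, *Dusp10* and *Dusp16*), the feedback inhibitors *Errfi1* and *Spry4*, and the receptor *Egfr*. All 10 were found among the 54838 genes of the deposited count table, and all 10 were among the 26191 genes with at least 1 read. They are described as a list chosen with earlier results of these data known, and no other member of the families was added to it.

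Ligand-bound receptor kinases such as EGFR pass their signal through Ras to the ERK cascade, while inflammatory and stress signals run mainly through the JNK and p38 cascades. Dual-specificity phosphatases remove phosphate from both the threonine and the tyrosine of an activated MAP kinase, and each has its own preference among ERK, JNK and p38. ERRFI1 binds the kinase domain of EGFR and its relatives and blocks it, and Sprouty proteins dampen Ras-ERK signalling downstream of receptors. *Dusp1* is a textbook glucocorticoid target through which these hormones restrain p38 and JNK.

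The livers came from C57BL/6J mice, per the study's methods females of 8 to 14 weeks, which drank for 7 days either plain water or water with 25 mM ZnSO4. They were then injected intraperitoneally with 200 µg of dexamethasone (Dex), a synthetic glucocorticoid, or with PBS alone, and the liver was taken 2 h later. The 4 groups of 3 libraries each are named after water and injection: water-PBS and zinc-PBS received no Dex, and water-Dex and zinc-Dex did. No group carried a transgene or deletion, and all 12 libraries share strain, tissue and time of sampling after injection.

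Between 9091152 and 12303527 reads per library were assigned to genes. In every library the 6 hepatocyte markers summed to at least 1198680 normalised counts, and the pancreatic markers *Cpa1* and *Pnlip* were at 0 throughout. Before any comparison, 2 libraries stood apart in early-response genes: water-PBS replicate 1 held 3379 normalised counts of *Egr1* against 551 and 302 in the other water-PBS livers, and zinc-PBS replicate 1 held 2177 of *Junb* against 362 and 566. Each was among the single libraries left out in turn.

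Counts are given after division by the DESeq2 size factor of the library. A gene was called when its DESeq2 adjusted p, over all genes tested, was under 0.05 and its log2 fold change exceeded 0.8 in size, the thresholds of the study. Where libraries of different groups are said not to overlap, the share of all genes that separate in this way was not counted. In a whole-liver sample, fewer cells of a type and less RNA per cell cannot be told apart.

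The promoters of 4 genes that changed are shown, since 3 of them, all higher with Dex, hold the same element. The set of RefSeq promoters used here (GRCm38.p6) holds 8 of the 10 genes, in 9 windows of which *Errfi1* has 2. *Dusp4* and *Spry4* were not in that set, so their promoters were not examined. The cyclic AMP response element TGACGTCA, which reads the same on both strands and binds CREB family factors, lies in the 250 bases before the start of *Dusp1*, of *Dusp8* and of the downstream start of *Errfi1*. It was present in 1.55% of all 32851 promoter windows of this length, a share not matched for base content. G and C made up 68.4% of the *Dusp1* window, 71.6% of that of *Dusp8* and 64.8% of that of *Errfi1*. The *Dusp10* window held 59.6%, and the median over all promoters was 52.4%. In the sequences below, each written 5′ to 3′ on the strand of its gene, the element is in capitals. *Dusp10*, the gene that fell, holds none. Neither do the windows of *Dusp3*, *Dusp6*, *Dusp16* and *Egfr*, or the upstream window of *Errfi1*. Of these, *Dusp16* was also higher with Dex, under the fold threshold. The *Dusp10* window lies within the gene's span of 184013302 to 184075636, and a start farther upstream was not examined. The windows are chr17:26508473-26508722 on the minus strand for *Dusp1*, chr7:142095285-142095534 on the minus strand for *Dusp8*, chr4:150854820-150855069 on the plus strand for *Errfi1* and chr1:184034131-184034380 on the plus strand for *Dusp10*.
Dusp1: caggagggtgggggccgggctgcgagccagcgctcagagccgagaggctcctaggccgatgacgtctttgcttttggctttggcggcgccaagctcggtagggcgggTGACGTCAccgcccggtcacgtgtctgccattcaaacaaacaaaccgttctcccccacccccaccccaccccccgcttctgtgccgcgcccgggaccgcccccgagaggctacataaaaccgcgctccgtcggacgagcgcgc
Dusp8: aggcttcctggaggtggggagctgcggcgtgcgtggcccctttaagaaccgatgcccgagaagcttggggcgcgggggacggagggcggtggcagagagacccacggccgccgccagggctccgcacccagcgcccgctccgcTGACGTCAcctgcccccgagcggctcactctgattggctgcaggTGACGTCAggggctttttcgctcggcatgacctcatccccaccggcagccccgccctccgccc
Errfi1: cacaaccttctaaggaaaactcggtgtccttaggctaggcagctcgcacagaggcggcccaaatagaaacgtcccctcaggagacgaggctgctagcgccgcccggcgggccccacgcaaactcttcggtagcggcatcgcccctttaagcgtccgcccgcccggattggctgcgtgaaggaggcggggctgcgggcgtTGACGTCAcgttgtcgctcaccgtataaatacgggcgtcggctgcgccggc
Dusp10: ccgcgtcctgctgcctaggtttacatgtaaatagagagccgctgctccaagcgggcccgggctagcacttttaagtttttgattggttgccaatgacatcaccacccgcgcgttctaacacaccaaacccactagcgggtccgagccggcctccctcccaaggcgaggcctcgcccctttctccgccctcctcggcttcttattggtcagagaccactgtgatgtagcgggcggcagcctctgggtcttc

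The element starts 143 bases before the start of *Dusp1* and 51 bases before that of *Errfi1*, and *Dusp8* holds 2 copies that start 107 and 63 bases before its start. The glucocorticoid receptor half-site AGAACA, searched on both strands, was in none of the 9 windows and in 16.1% of all windows. The AP-1 site was also in none of them and in 4.46% of all, and the CArG box in none and in 1.47%. These matches describe the letters of the windows, and the motifs were picked with the expression results known. Sites farther than 250 bases before a start, or after it, were not searched.

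The first comparison asks how 2 h of Dex altered these genes in mice on plain water. *Dusp1*, *Dusp4*, *Dusp8* and *Errfi1* rose and *Dusp10* fell, while *Dusp16* and *Spry4* were higher by less than the fold threshold and *Dusp3*, *Dusp6* and *Egfr* did not pass the test. Of the 10 genes, 4 were called higher, where 4.89% of all 14221 genes tested were, and 1 was called lower, where 4.79% were. At an adjusted p under 0.05 alone, 6 were higher, against 11.7% of all genes. The median log2 fold change was 0.67 over the 10 genes and -0.011 over all genes tested. The genes were chosen with earlier results known, so these shares and medians, here and on zinc water, describe the list without testing it. Over all genes 50.5% of the calls were higher, and 30.3% were when libraries were scaled by their total count, which moved the median of all genes to -0.21. The 5 calls among the 10 genes were the same under that scaling.

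The same Dex dose in mice on zinc water gave the same 5 calls. Here the background was 5% of 15657 genes called higher and 4.68% called lower, and 5 of the 10 genes against 11% of all genes were higher at an adjusted p under 0.05 alone. The median was 0.60 over the 10 genes and -0.011 over all, and the share of calls that were higher was 51.6%, or 30.3% with total-count scaling. The Dex effects on the 2 kinds of water use separate control and treated libraries, and the fit estimates the spread of each gene from all 12. Each of the 5 calls in each of these comparisons held under all 14 alternative fits.

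**Figure D1:**
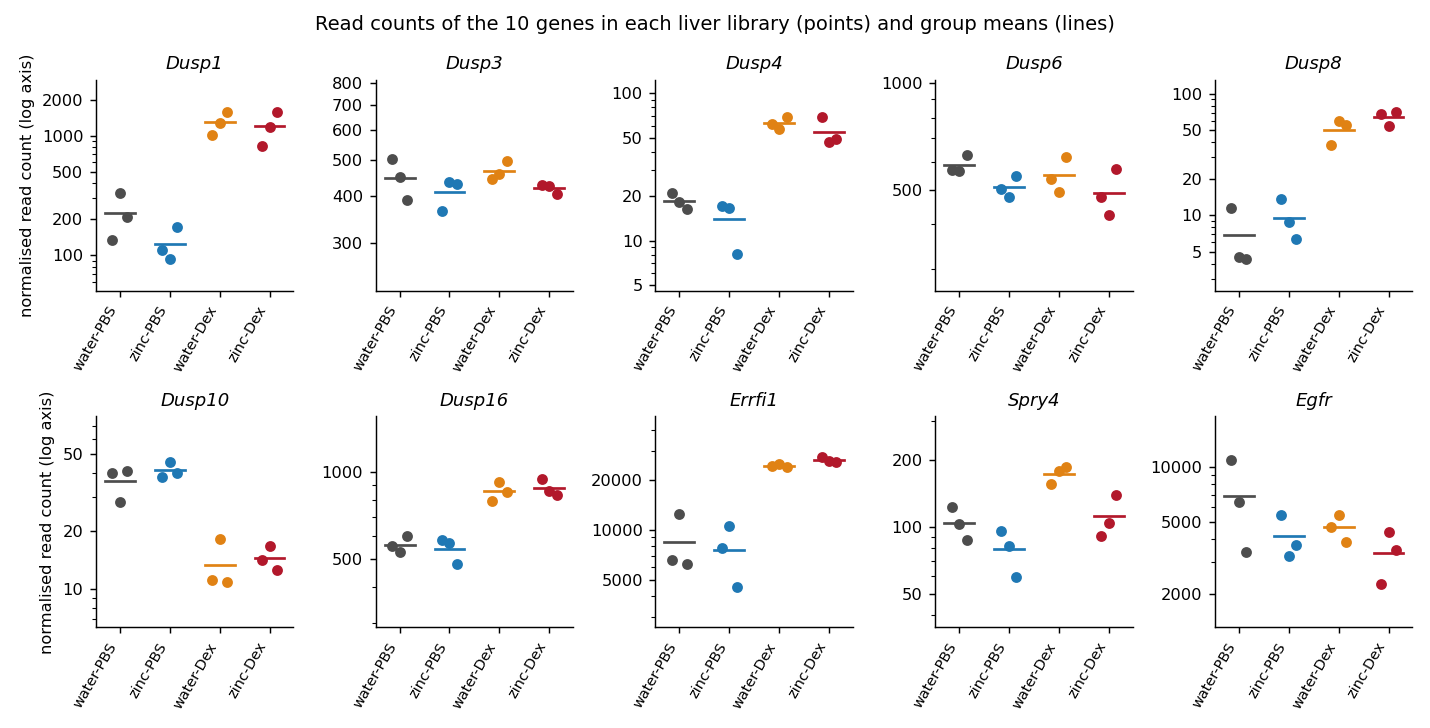
Normalised read counts of the 10 genes in each library, on log axes that differ between panels; points are the 3 libraries of a group and the line is their mean. *Dusp1*, *Dusp4*, *Dusp8*, *Errfi1* and, by a smaller step, *Dusp16* lie higher in all 6 Dex libraries than in all 6 PBS libraries. *Dusp10* lies lower in all 6, and *Egfr* spreads from 3395 to 10927 within water-PBS alone. How many of all genes separate in this way was not counted.

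Among the phosphatases that act in the nucleus on stress kinases and ERK, *Dusp1* (ENSMUSG00000024190, GRCm38 chromosome 17, 26505590 to 26562128, minus strand) was the most abundant induced gene. Its counts were 135, 332 and 209.8 in water-PBS, 112, 93.5 and 171 in zinc-PBS, 1006, 1267 and 1588 in water-Dex, with 816, 1189.7 and 1577 in zinc-Dex. The lowest Dex liver stood above the highest PBS liver, and the PBS livers themselves ranged from 93.5 to 332. The rise was 5.69-fold on plain water (95% interval 3.35 to 9.68, log2 2.51 ± 0.39 SE, DESeq2 adjusted p 3.4e-09) and 9.52-fold on zinc water (5.58 to 16.2, log2 3.25 ± 0.39, DESeq2 adjusted p 6.4e-15). With single libraries left out, the log2 values ran from 2.25 to 2.90 and from 3.00 to 3.54. Its exons overlap those of *Ergic1* on the other strand by 11 bases.

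*Dusp4* (ENSMUSG00000031530, chromosome 8, 34807297 to 34819894, plus strand), a nuclear phosphatase of ERK and JNK, is a low transcript in these livers. It had 21, 18.2 and 16.5 counts in water-PBS, 17.1, 16.6 and 8.15 in zinc-PBS, 61.9, 57.4 and 69.3 in water-Dex, with 68.4, 46.7 and 49.0 in zinc-Dex. The PBS and Dex libraries did not overlap on either kind of water. It rose 3.39-fold on plain water (2.24 to 5.14, log2 1.76 ± 0.31, DESeq2 adjusted p 1.7e-07) and 3.90-fold on zinc water (2.53 to 6.03, log2 1.97 ± 0.32, DESeq2 adjusted p 1.8e-08). With single libraries left out, the log2 values ran from 1.69 to 1.85 and from 1.69 to 2.14.

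Of the phosphatases with a preference for JNK and p38, *Dusp8* and *Dusp10* moved in opposite directions. *Dusp8* (ENSMUSG00000037887, chromosome 7, 142079490 to 142095843, minus strand) had 11.6, 4.55 and 4.39 counts in water-PBS, 13.5, 8.74 and 6.34 in zinc-PBS, 37.6, 59.6 and 55.4 in water-Dex, with 68.4, 54.4 and 71.1 in zinc-Dex. Even the highest PBS liver was below the lowest Dex liver. The fold was 7.50 on plain water (4.21 to 13.4, log2 2.91 ± 0.42, DESeq2 adjusted p 2.2e-10) and 6.79 on zinc water (4.09 to 11.3, log2 2.76 ± 0.37, DESeq2 adjusted p 4.2e-12). The size on plain water leans on few reads in the controls, since the raw counts there were 11, 5 and 4, and without water-PBS replicate 1 its log2 fold change was 3.50. On zinc water the values without single libraries ran from 2.54 to 3.10. Its exons share 66 bases with those of *Gm32786* on the other strand.

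*Dusp10* (ENSMUSG00000039384, chromosome 1, 184013302 to 184075636, plus strand) had 39.9, 28.2 and 40.6 counts in water-PBS and 37.9, 45.5 and 39.8 in zinc-PBS. After Dex it had 11.2, 18.1 and 10.9 on plain water and 14.1, 16.7 and 12.5 on zinc water. Every Dex liver was below every PBS liver. On the log2 scale it fell by 1.44 ± 0.35 on plain water (DESeq2 adjusted p 4.5e-04) and by 1.52 ± 0.34 on zinc water (DESeq2 adjusted p 1.1e-04), which left 0.369 (0.229 to 0.595) and 0.350 (0.220 to 0.556) of the PBS level. Without single libraries the log2 values ran from -1.71 to -1.31 and from -1.63 to -1.42.

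*Dusp16* (ENSMUSG00000030203, chromosome 6, 134715468 to 134792625, minus strand), which prefers JNK, made a small shift with little spread. Its group means were 559 ± 37.3 and 856 ± 65.9 on plain water and 542 ± 55.7 and 877 ± 58.1 on zinc water, with PBS and with Dex (SD, n = 3 each). All 6 Dex libraries, from 794 to 942, were above all 6 PBS libraries, from 478 to 599.6. The log2 fold changes of 0.62 ± 0.11 and 0.69 ± 0.11 had DESeq2 adjusted p-values of 1.7e-07 and 1.7e-09. They lay under the fold threshold of 0.8, so the gene was not called. Nor was it called in any of the 14 alternative fits of either comparison, though it passed in both once the fold threshold was dropped.

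The remaining phosphatases showed no such separation. *Dusp6* (ENSMUSG00000019960, chromosome 10, 99263231 to 99267489, plus strand), the cytoplasmic phosphatase specific for ERK and itself a transcript that ERK signalling raises, ranged from 424 to 627 over the 12 libraries. Its Dex effects were -0.093 (95% interval -0.34 to 0.16) on plain water and -0.049 (-0.30 to 0.20) on zinc water, on the log2 scale. *Dusp3* (ENSMUSG00000003518, chromosome 11, 101971143 to 101987013, minus strand), a small phosphatase of ERK and JNK, ranged from 366 to 501. Its Dex effects were 0.058 (-0.17 to 0.28) and 0.029 (-0.20 to 0.26), and 604 bases of its exons overlap *Gm20659* on the other strand. For both genes the intervals leave out a change as large as the threshold of 0.8 in either direction.

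**Figure D2:**
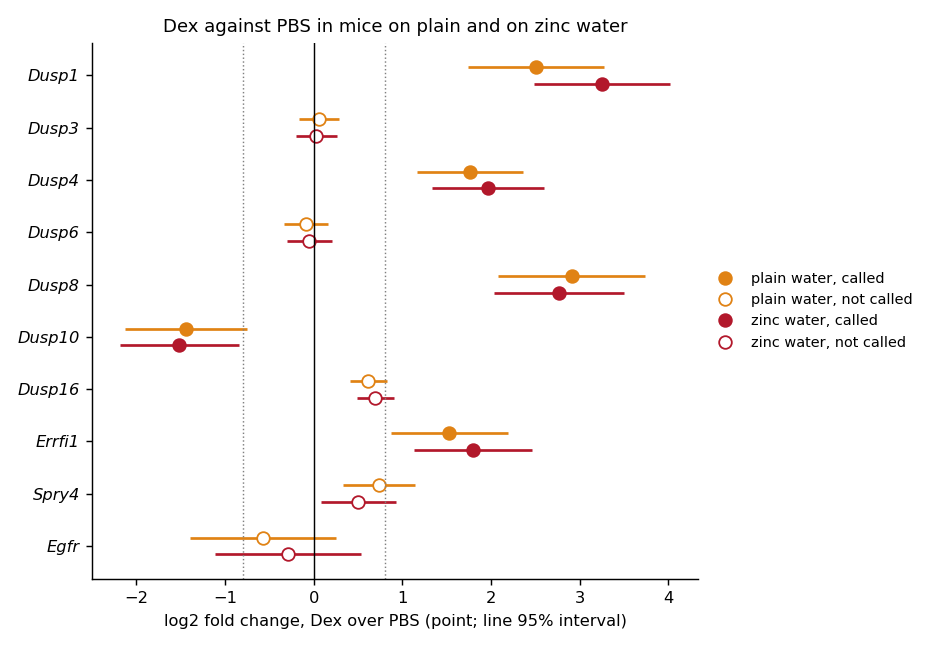
Log2 fold change of Dex over PBS for the 10 genes, on plain and on zinc water; points are DESeq2 estimates, lines their 95% intervals, and dotted lines mark -0.8 and 0.8. Filled points were called: *Dusp1*, *Dusp4*, *Dusp8* and *Errfi1* to the right and *Dusp10* to the left, on both kinds of water.

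Among the feedback inhibitors, *Errfi1* (ENSMUSG00000028967, chromosome 4, 150853919 to 150868892, plus strand) was by far the most abundant of the 10 transcripts. It had 6621, 12440.4 and 6213 counts in water-PBS, 7743, 10521 and 4520.2 in zinc-PBS, 24177, 24792 and 23944 in water-Dex, with 27543, 25818 and 25601 in zinc-Dex. The PBS livers were uneven while the Dex livers lay close together: the coefficient of variation was 41.4% and 39.5% in the PBS groups and 1.80% and 4.04% in the Dex groups. *Errfi1* rose 2.88-fold on plain water (1.82 to 4.57, log2 1.53 ± 0.34, DESeq2 adjusted p 7.5e-05) and 3.47-fold on zinc water (2.19 to 5.48, log2 1.79 ± 0.34, DESeq2 adjusted p 1.9e-06). Leaving out single libraries moved these log2 values between 1.35 and 1.92 and between 1.53 and 2.10.

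*Spry4* (ENSMUSG00000024427, chromosome 18, 38586247 to 38601415, minus strand), a Sprouty inhibitor of Ras-ERK signalling, had 123, 103 and 86.8 counts in water-PBS, 95.7, 82.2 and 59.8 in zinc-PBS, 155, 179 and 185 in water-Dex, with 91.2, 104 and 139 in zinc-Dex. On plain water all Dex livers were above all PBS livers, while on zinc water they overlapped. The Dex effect was 0.73 ± 0.21 on the log2 scale on plain water (DESeq2 adjusted p 0.0034), just under the fold threshold, and 0.50 ± 0.22 on zinc water (DESeq2 adjusted p 0.088). On plain water the gene was called when water-PBS replicate 1 (0.86) or water-Dex replicate 1 (0.80) was left out, at DESeq2 adjusted p-values of 0.0020 and 0.0068, with adjusted p-values from 0.0018 to 0.040 over its alternatives. The difference between both Dex effects was -0.23 (95% interval -0.82 to 0.36), which did not pass the interaction test.

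*Egfr* (ENSMUSG00000020122, chromosome 11, 16752203 to 16918158, plus strand), the receptor that ERRFI1 restrains, was uneven within its control group, with a coefficient of variation of 54.9%. It had 10927, 6399.5 and 3395 counts in water-PBS, 5463, 3235 and 3729.9 in zinc-PBS, 4638, 5455 and 3844 in water-Dex, with 2265, 4376 and 3492 in zinc-Dex. The water-PBS libraries alone covered the whole range of water-Dex. The log2 Dex effects of -0.57 ± 0.42 and -0.29 ± 0.42 had DESeq2 adjusted p-values of 0.38 and 0.72, and without water-PBS replicate 1 the effect on plain water was -0.077.

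The second question is what zinc water did to the same genes, and none of the 10 was called with PBS or with Dex. In zinc-PBS against water-PBS, 0 of 10 were called by DESeq2 or by edgeR, 1 had an unadjusted DESeq2 p under 0.05, and 0.138% of 12307 genes tested were called. That gene was *Dusp1*, lower on zinc water by 0.85 ± 0.40 on the log2 scale (95% interval -1.63 to -0.072, DESeq2 adjusted p 0.77), and the 2 groups overlapped between 135 and 171. The value shrank to -0.46 without water-PBS replicate 2, the liver with 332 counts. *Egfr* was at -0.74 (-1.56 to 0.086) and at -0.24 without water-PBS replicate 1.

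In zinc-Dex against water-Dex, 0 of 10 were called by DESeq2 or by edgeR, again 1 had an unadjusted p under 0.05, and 0.469% of 12786 genes were called. Of those calls over all genes, 65.0% were higher, or 41.3% with total-count scaling. *Spry4* was lower on zinc water in all livers, 91.2 to 139 against 155 to 185, with a log2 fold change of -0.63 ± 0.21 (-1.03 to -0.22, DESeq2 adjusted p 0.12). Leaving out zinc-Dex replicate 3 gave a call (-0.82, DESeq2 adjusted p 0.031), and its adjusted p ran from 0.031 to 0.57 over the alternatives. The livers also did not overlap for *Dusp3*, lower on zinc water (405 to 429 against 444 to 496). Nor did they for *Errfi1*, higher on zinc water (25601 to 27543 against 23944 to 24792). For the 5 genes called with Dex, the zinc effect in Dex livers lay between -0.20 for *Dusp4* and 0.35 for *Dusp8*. The 95% intervals of *Errfi1* (-0.55 to 0.78) and *Dusp4* (-0.72 to 0.31) stayed inside the fold threshold. Those of *Dusp1* (-0.87 to 0.65), *Dusp8* (-0.23 to 0.93) and *Dusp10* (-0.66 to 0.88) reached past it. The interval of *Errfi1* uses a spread estimated from all 12 libraries, including its uneven PBS groups. Its coefficient of variation was 1.80% in water-Dex and 4.04% in zinc-Dex.

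**Figure D3:**
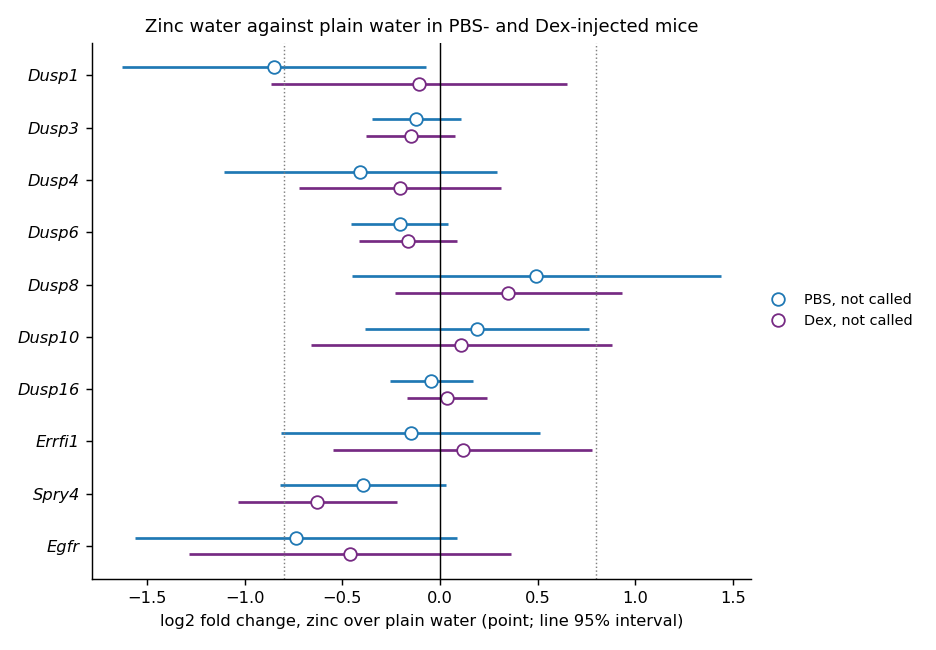
Log2 fold change of zinc water over plain water for the 10 genes, in PBS- and in Dex-injected mice; points are DESeq2 estimates, lines 95% intervals, and dotted lines mark -0.8 and 0.8. All points are open because no gene was called, and only the intervals of *Dusp1* with PBS and of *Spry4* with Dex leave out 0.

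The interaction, the Dex effect on zinc water minus that on plain water, called 0 of the 10 genes by DESeq2 or edgeR, with 0 at an unadjusted p under 0.05 and 0.0191% of 26185 genes called. The point estimate farthest from 0 was that of *Dusp1*, 0.74 ± 0.55 (95% interval -0.35 to 1.83), and it dropped to 0.35 without water-PBS replicate 2. With 3 livers a group, the 95% intervals of *Dusp1*, *Dusp4* and *Errfi1* reached past the fold threshold on the positive side. That of *Spry4* did so on the negative side, and those of *Dusp8*, *Dusp10* and *Egfr* on both. Differences of the size of the threshold were thus not excluded for these genes in those directions. For *Dusp3*, *Dusp6* and *Dusp16* the intervals stayed within -0.35 and 0.40.

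With both treatments against neither, zinc-Dex over water-PBS, the same 5 genes were called, 4 higher, where 3.69% of 21401 genes tested were, and 1 lower, where 3.55% were. This comparison shares its libraries with those above, and over all genes 51.0% of its calls were higher, or 27.5% with total-count scaling. Its log2 fold changes were 2.40 for *Dusp1*, 1.56 for *Dusp4*, 3.26 for *Dusp8*, 1.64 for *Errfi1* and -1.33 for *Dusp10*. *Egfr* was at -1.03 ± 0.42 (DESeq2 adjusted p 0.083). It was called by edgeR (edgeR adjusted p 0.031), with total-count scaling (-1.26) and without water-PBS replicate 3 (-1.36) or zinc-Dex replicate 2 (-1.26), and was at -0.54 without water-PBS replicate 1, with adjusted p-values from 0.0022 to 0.36 over the alternatives.

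Counts divided by exon length in kilobases and by library total (the scale of RPKM) place the genes on a common scale of level. In water-PBS the order was *Errfi1* (229.8), *Egfr* (59.2), *Dusp6* (18.4), *Dusp3* (9.33), *Dusp16* (7.02), *Dusp1* (6.68), *Spry4* (2.14), *Dusp10* (1.17), *Dusp4* (0.662) and *Dusp8* (0.136). This order depended on the length used: per length of the longest transcript *Dusp16* (10.7) stood above *Dusp3* (9.83). *Dusp16* and *Dusp1* are neighbours that did not differ beyond the spread of *Dusp1* (SD 2.94). In water-Dex *Dusp1* stood at 33.2, next to *Egfr* at 35.0 (47.5 and 38.8 by the longest transcript, in the opposite order), and *Dusp10* had become the lowest at 0.375, below *Dusp8* at 0.891. *Errfi1* led in every group, at 579 in water-Dex and 608 in zinc-Dex.

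Other genes of the pathway, 73 in 5 lists, were read from the same fit. These lists too were chosen with earlier results known, so their shares and medians are a description. On plain water 61 of the 73 could be tested with Dex, and 7 were called higher and 6 lower. Of all genes tested there, 4.89% were called higher and 4.79% lower. On zinc water 62 could be tested, and 7 were called higher and 8 lower, where 5% and 4.68% of all genes tested were. The same shares belong beside the Dex counts of each list below, where few genes stand behind each count. The medians over the tested genes were -0.032 and -0.074 on the log2 scale, next to -0.011 over all genes in each comparison.

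Of 13 other dual-specificity phosphatases, 10 could be tested, 1 rose and 1 fell on each kind of water. *Dusp14*, a small phosphatase of the same family, rose from 13.3 ± 2.76 to 156 ± 35.7 counts on plain water (log2 3.56 ± 0.30, DESeq2 adjusted p 3.9e-30) and from 12.2 ± 3.56 to 188 ± 21.2 on zinc water (log2 3.95 ± 0.30), a larger log2 estimate than that of any of the 10 genes in either comparison. *Dusp7*, a cytoplasmic ERK phosphatase with under 50 counts on average and named here after its values were seen, fell with log2 fold changes of -1.32 and -1.08. The other 8 did not pass the thresholds.

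Among 11 other feedback inhibitors of receptor kinases, *Lrig1* alone was called. *Lrig1* is a membrane protein that lowers ErbB receptor levels, and it fell from 309 ± 21.7 to 159 ± 23.7 on plain water (log2 -0.96 ± 0.15) and from 344 ± 29.3 to 142 ± 21.6 on zinc water (log2 -1.28 ± 0.15). The other tested Sprouty, Spred, Cbl and related genes, 8 on plain water and 9 on zinc water, were not called.

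Of 12 ErbB receptors and ligands, 10 could be tested on each kind of water, and 4 were called on plain water and 3 on zinc water. *Erbb3*, a receptor that signals as a partner of other ErbB kinases, fell from 2008 ± 414 to 647 ± 162 (log2 -1.63 ± 0.23) and from 2024 ± 311 to 884 ± 266 (log2 -1.20 ± 0.23). *Nrg4*, an ErbB4 ligand, rose with log2 fold changes of 1.40 ± 0.21 and 1.14 ± 0.19. *Erbb4* itself rose with Dex on plain water (log2 0.94 ± 0.25), a call lost without water-Dex replicate 2 at 0.75 and with total-count scaling at 0.74. It also rose with zinc in PBS mice, from 46.1 ± 7.40 to 102 ± 24.9 (log2 1.14 ± 0.25, DESeq2 adjusted p 0.0037), but was not called by edgeR (edgeR adjusted p 0.13), nor when replicate 1 of water-PBS (1.06) or of zinc-PBS (0.93) was left out. Its adjusted p ran from 0.0021 to 0.13 over its alternatives. The low ligand transcripts *Nrg1* on plain water and *Hbegf* on zinc water made up the other calls, both lower. The call of *Nrg1* (log2 -2.84 ± 1.03) held in 1 of 12 alternatives and that of *Hbegf* (-1.61 ± 0.42) in all 14.

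In the list of 22 adaptors and MAP kinase cascade genes, all of which could be tested, 2 were called with Dex on plain water and 3 on zinc water. All of them were MAP kinase kinases and all were higher. *Map2k6*, an activator of p38, rose by log2 2.00 ± 0.20 and 2.08 ± 0.19, and *Map2k4*, an activator of JNK and p38, by 1.06 ± 0.086 and 1.19 ± 0.084. *Map2k3*, another p38 activator, was at 0.77 ± 0.12 on plain water, under the threshold, and was called on zinc water at 1.11 ± 0.12 and in zinc-Dex against water-PBS at 1.33 ± 0.12. The adaptor *Grb2*, named here after its values were seen, was at 0.71 ± 0.078 and 0.72 ± 0.076 with Dex, under the threshold, and was called in zinc-Dex against water-PBS at 0.80 ± 0.078. That call held in 10 of 14 alternatives, at log2 values from 0.56 to 0.83, and was lost without water-PBS replicate 2 or without zinc-Dex replicate 3 (0.77). In zinc-Dex against water-Dex, 0 pathway genes were called by DESeq2 or edgeR, with 7 at an unadjusted p under 0.05. There *Map2k3* alone had an adjusted p under 0.05, at 0.56 ± 0.12 (DESeq2 adjusted p 0.0011).

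**Figure D4:**
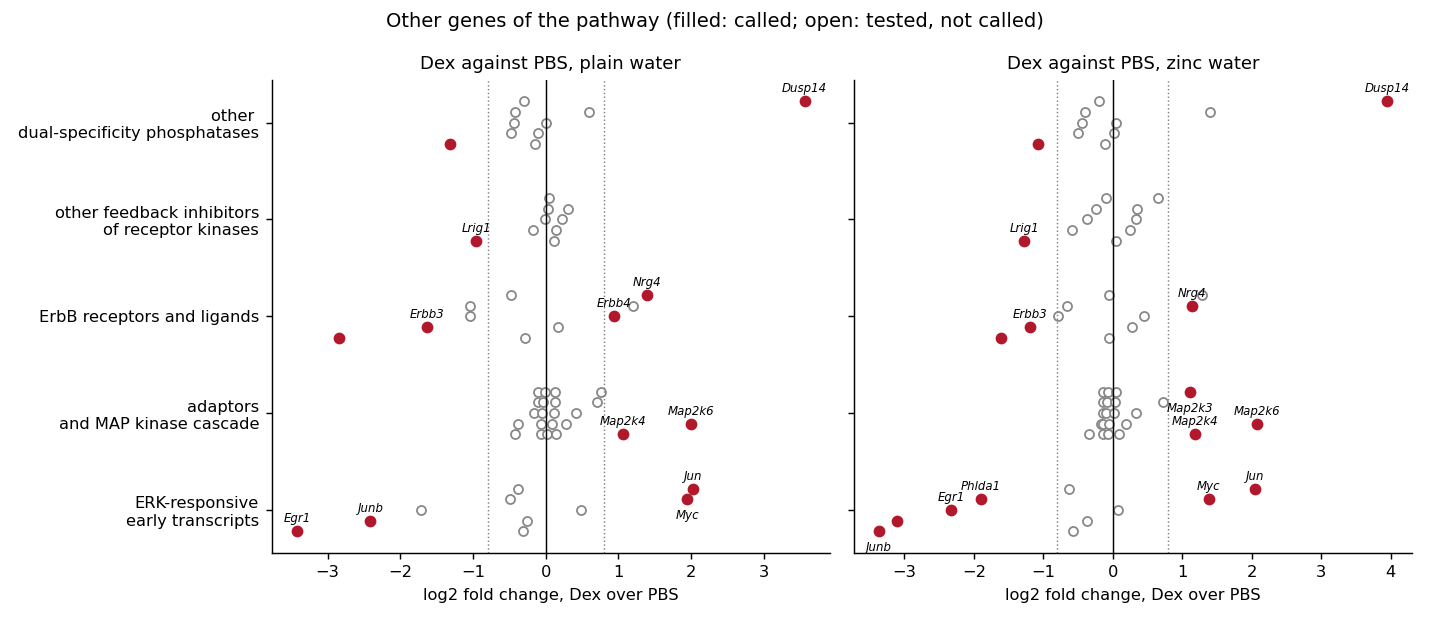
Log2 fold change of Dex over PBS for the tested genes of the 5 pathway lists, on plain water (left) and zinc water (right); filled points were called, open points were not, and dotted lines mark -0.8 and 0.8. *Dusp14* stands alone on the right of its list at 3.56 and 3.95, and of the early transcripts *Jun* and *Myc* were higher and *Egr1* and *Junb* lower on both kinds of water, with *Phlda1* and *Ier3* also lower on zinc water.

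Of 15 ERK-responsive early transcripts 10 could be tested, and 2 were called higher in each comparison, while 2 were called lower on plain water and 4 on zinc water. *Jun* rose from 127 ± 13.6 to 515 ± 27.3 on plain water (log2 2.02 ± 0.24) and from 172 ± 78.6 to 714 ± 102 on zinc water (2.05 ± 0.23), and *Myc* rose by 1.95 ± 0.29 and 1.38 ± 0.27. *Egr1* and *Junb*, which encode transcription factors that growth factor signalling raises within minutes, fell with Dex. The log2 fold changes of *Egr1* were -3.42 ± 0.79 on plain and -2.33 ± 0.79 on zinc water, and those of *Junb* were -2.41 ± 0.63 and -3.36 ± 0.62. The 2 livers that stood apart carry part of this size: without water-PBS replicate 1 the *Egr1* value on plain water was -1.70 and still called, and without zinc-PBS replicate 1 the value on zinc water was -1.84 and no longer called. The call on zinc water was also lost without zinc-PBS replicate 3 (-2.42) and without zinc-Dex replicate 1 (-2.31), replicate 2 (-2.22) or replicate 3 (-2.46). *Junb* remained called with Dex in both comparisons without any single library. Its value on zinc water includes zinc-PBS replicate 1, with 2412 raw reads of *Junb* against 414 and 625 in the other zinc-PBS livers. The other calls on zinc water were *Phlda1* (log2 -1.89 ± 0.26) and *Ier3*, the latter named after its values were seen. *Ier3* had 141 counts in zinc-PBS replicate 1 and at most 22.0 in every other library, and its log2 fold change of -3.10 ± 1.02 became -0.82, no longer called, without that liver. Its call was also lost without zinc-Dex replicate 1 or 3, with adjusted p-values from 6.5e-05 to 0.49 over the alternatives.

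*Phlda1*, another early transcript, was called for zinc water in PBS mice. It had 133, 196 and 147 counts in water-PBS and 729, 398 and 303 in zinc-PBS, against 124 to 149 in the 6 Dex livers. All zinc-PBS livers were above all others (log2 1.58 ± 0.26 against water-PBS, DESeq2 adjusted p 1.3e-06), and without zinc-PBS replicate 1 the value was 1.14. *Phlda1* and *Erbb4* were the 2 pathway genes called for zinc in PBS mice, of 55 tested, where 0.138% of all genes tested were called. *Phlda1* was the 1 pathway gene, of 72 tested, called by the interaction test (log2 -1.63 ± 0.37, DESeq2 adjusted p 0.048). Of all genes tested for the interaction, 0.0191% were called. The pathway lists were chosen with earlier results of these data known, so these shares describe the lists without testing them. The interaction call was lost under edgeR (edgeR adjusted p 0.55) and without water-PBS replicate 1, water-Dex replicate 1 or 2, or zinc-Dex replicate 1 or 3, at DESeq2 adjusted p-values from 0.050 to 0.45.

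Markers of other liver cells were summed as a check of the samples. On plain water the 5 Kupffer cell markers summed to 3714 to 5275 in water-PBS and 4130 to 5003 in water-Dex, and the 5 cholangiocyte markers to 731 to 839 and 588 to 814, with overlap in both. The 5 stellate cell markers summed to 3722 to 3941 and 4005 to 4042, and on zinc water to 3540 to 3583 and 3864 to 4619, without overlap on either. Within that list *Lrat* went from 367 ± 7.94 to 224 ± 66.7 on plain water (log2 -0.72 ± 0.19, DESeq2 adjusted p 0.0011), under the fold threshold. The 5 sinusoidal endothelial markers summed to 2635 to 2974 and 2946 to 3205 on plain water, but *Lyve1* rose (log2 2.53) and *Kdr* fell (log2 -1.14) within the list. The 4 lymphocyte markers summed to 26.4 to 30.0 in water-PBS and 10.2 to 12.9 in water-Dex, and to 21.9 to 40.6 in zinc-PBS and 17.3 to 21.7 in zinc-Dex, at a level of few reads. The hepatocyte markers summed to 1198680 to 1392700 in water-PBS and 1557170 to 1668240 in water-Dex. Their part in the changes of the 10 genes was not tested.

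The genes whose levels ran most alike were found by Pearson's r of log2(normalised count + 1) over the 12 libraries, among 9574 genes with a mean of at least 50 counts. They are a description: all 12 points share the Dex contrast, which dominates each r. *Dusp1* ran closest to *Pfkfb2* (0.974), *Nos3* (0.973) and *Gins4* (0.971), and *Dusp4* to *Ehd3* (0.983), *Ston1* (0.977) and *Prdm2* (0.976). *Dusp8* ran closest to *Chd7* (0.986), *Etf1* (0.984) and *Lin7c* (0.983), *Dusp10* to *Twnk* (0.980), *Hdac5* (0.970) and *Repin1* (0.968), and *Errfi1* to *Lurap1l* (0.973), *Srsf4* (0.973) and *Gm14403* (0.973). After the group means were taken out, so that only the differences between livers of 1 group remained, the leading genes were *Blzf1*, *Postn* and *Ncoa5* for *Dusp1* (0.934 to 0.874), *Pik3c2g*, *Acbd5* and *Cdc42* for *Dusp4* (0.941 to 0.919), *Ivns1abp*, *Il11ra1* and *Ccdc58* for *Dusp8* (0.938 to 0.925), *Gnptab*, *Zfyve9* and *Wfdc1* for *Dusp10* (0.956 to 0.909), and *Ccndbp1*, *Rasa3* and *Morf4l1* for *Errfi1* (0.910 to 0.895). None of these names was shared between the 2 measures. Which genes led depended on single livers: of the 15 names, 4 to 13 stayed in the first measure and 3 to 8 in the second when 1 library was left out.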

How the data were processed

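Per the labels, liver RNA was made into stranded single-end libraries. The authors trimmed reads (Trimmomatic is named in the processing notes), mapped them to mm10 with HISAT2 2.0.4 and deposited raw read counts per gene from featureCounts, without multimapping reads. The annotation release and strand setting are not given in the sources used here, so levels of genes that overlap others on the opposite strand are uncertain. Symbols and coordinates came from GENCODE M21 for 54809 of 54838 identifiers. Totals ranged from 9091152 to 12303527 counts.

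From the counts, DESeq2 1.42.0 (R 4.3.3) was fitted over all genes and all 12 libraries with 1 coefficient per group. Log2 fold changes were not shrunk, p-values came from the Wald test with Benjamini-Hochberg adjustment, and intervals are at 95%. A 3 against 3 exact permutation cannot give p below 0.1 and was not used. Named genes were the 10 genes, up to 2 called genes in each direction for each pathway list and comparison with at least 50 mean counts, and the 3 genes most alike to each called gene. Alternatives were edgeR 4.0.16, TMM factors, a filter of 10 counts in 3 libraries, no independent filtering, no Cook's filter, only the compared libraries, a replicate block, no fold threshold, each library left out and, chosen after seeing the data, total-count scaling. The fits were tested on counts simulated for water-PBS and water-Dex alone, with the same spread for every gene. That simulation does not cover genes as uneven between livers as *Egfr* or *Egr1*. The members, lists and motifs were chosen with earlier results of these data known. The labels number the libraries 1 to 3 without saying which mouse gave each, so p-values measure the spread between these libraries.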

Additional observations from a re-analysis of the deposited data

Results flagged for a closer look

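*Phlda1*, an early transcript of the pathway lists, differed between Dex effects: the interaction test gave a log2 difference of -1.63 ± 0.37 (DESeq2 adjusted p 0.048). All zinc-Dex livers (126 to 129.8 counts) lay below all zinc-PBS livers (303 to 729), and the Dex effect on plain water was not called. The adjusted p crossed the threshold under edgeR (edgeR adjusted p 0.55) and without water-PBS replicate 1 (0.050), water-Dex replicate 1 (0.45) or replicate 2 (0.12), zinc-Dex replicate 1 (0.23) or replicate 3 (0.14).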

How the results depend on the processing

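The 5 genes called with Dex kept their direction and their call in all 225 alternative values of the 3 comparisons that test them. Among values of the 10 genes that were not called, 673 kept direction and side of the threshold, 11 passed it and 41, all small, changed sign. The *Dusp16* values passed only where the fold threshold was dropped, as did a *Spry4* value for Dex on plain water. With total-count scaling *Dusp3* was at -0.14 on plain and -0.20 on zinc water with Dex, *Dusp16* at -0.010 for zinc in Dex mice and *Spry4* at -0.13 for zinc-Dex over water-PBS. With single libraries left out, sign changes gave these lowest and highest log2 values. For zinc in PBS mice they were -0.099 and 0.038 for *Dusp16* and -0.46 and 0.24 for *Errfi1*. For Dex they were -0.026 and 0.14 for *Dusp3* on plain water, and on zinc water -0.048 and 0.075 for *Dusp3* and -0.18 and 0.045 for *Dusp6*. For zinc in Dex mice they were -0.36 and 0.10 for *Dusp1*, -0.021 and 0.38 for *Dusp10* and -0.019 and 0.092 for *Dusp16*, and for zinc-Dex over water-PBS -0.090 and 0.24 for *Spry4*. For the interaction they were -0.12 and 0.055 for *Dusp3*, -0.066 and 0.38 for *Dusp4*, -0.084 and 0.14 for *Dusp6*, -0.74 and 0.19 for *Dusp8*, -0.21 and 0.19 for *Dusp10*, -0.0030 and 0.14 for *Dusp16*, -0.13 and 0.57 for *Errfi1* and -0.22 and 0.60 for *Egfr*. The cause was not tested.

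Pathway genes called for zinc in PBS mice numbered 2, 1 with edgeR, and 1 to 2 with a library left out. For zinc in Dex mice 1 pathway gene passed without the fold threshold, and 0 to 1 of the 10 genes with a library left out. For the interaction 0 pathway genes passed with edgeR and 0 to 1 with a library left out. Of the 15 most alike genes 9 stayed with TMM-scaled counts, and 4 to 13 (3 to 8 after removal of group means) with a library left out. Of the values of named pathway genes, 510 kept their call and 19 lost it.

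Same-numbered libraries did not deviate together: the correlation of their deviations from group means had a median of 0.030 (-0.22 to 0.23) over 18 pairs. With the replicate block, 5 of the 10 genes were called for Dex on plain water, 5 on zinc water and 0 for zinc, as without it, and pathway calls were 12 and 14 with Dex.

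Few reads stand behind the low transcripts: raw counts of *Dusp8* in water-PBS were 11, 5 and 4, and those of *Dusp10* with Dex 11 to 17. *Egfr*, a far more abundant transcript, had a standard error of 0.42 on the log2 scale in both Dex comparisons.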
